A study of Drosophila melanogaster with 12 samples.

Results

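The wing imaginal disc arrays of the ash1 allele ash1-22 are described here. They are the 4 arrays whose titles name ash1-22, of 12 in the series, and the other 8 hold the ash2 alleles ash2-I1 and ash2-112411 with 4 arrays each. The ash1-22 larvae were w1118;+;ash1-22/ash1-22-F2A, with chromosomes X, Y and 2 replaced by those of the reference line, as in the ash2 mutants w1118;+;ash2-I1 and w1118;+;ash2-112411, while chromosome 3 carries the allele. The reference was the isogenic DrosDel line w1118;+;+, whose disc RNA was pooled into 1 control that was hybridized on every array. All larvae were grown on food with bromophenol blue and selected as blue-gut, wandering larvae of the third instar. Ash1-22 is described as a null allele and was brought to homozygosity over a second ash1-22 chromosome, F2A, so each group is 1 genotype on 1 genetic background. Both arrays of an ash1-22 extraction hold the same amplified RNA, once in Cy3 and once in Cy5. Ratios were turned so that each reads mutant over pool, and the 2 arrays of an extraction were averaged, which leaves n = 2 extractions. Nothing states that the extractions came from separate crosses, so the p-values measure only the spread between extractions of the same allele. That spread was estimated from the ash2 extractions together with the ash1-22 extractions, where the ash2 alleles had values. It was also drawn toward a value common to all probes, so it is not the spread of ash1-22 alone.

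ASH1 is a histone lysine methyltransferase of the trithorax group, the set of proteins that keep genes active through development and oppose silencing by the Polycomb group. It works in a complex with MRG15 and Caf1-55, and Hox genes are its best known targets. The wing disc is the epithelial sac of the larva that forms the wing and the body wall of the thorax, and it is divided into domains by transcription factors such as Apterous, Knot and Distal-less.

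The deposited values are log2 ratios, 0 meaning the same signal in mutant and pool, and they carry no level. The ash1-22 arrays had a value for 9190 and 9985 spots in extraction 1 and for 5804 and 10747 spots in extraction 2, the first of each pair with the mutant in Cy3 and the second with it in Cy5. Turned ratios of any 2 of these arrays correlated across spots at r = 0.624 to 0.804. A gene was tested when both extractions had a value, which left 8148 genes with a median log2 ratio of 0.009. Below, rose and fell are used of genes for which limma gave a Benjamini-Hochberg adjusted p under 0.05 over all probes and a change over 1.5-fold, a log2 ratio of 0.58.

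The extractions did not match for one set of genes. The 2 extraction means correlated across genes at r = 0.766, but 16 genes were higher in extraction 1 than in extraction 2 by over 1 on the log2 scale, against 1 gene higher in extraction 2. Lsp2, a storage protein made by the larval fat body, had log2 ratios of 4.38 and 3.99 on the arrays of extraction 1 and −0.35 on the 1 array of extraction 2 that measured it. Fbp1, the fat body receptor for such storage proteins, was at 2.26 in extraction 1 and −0.13 in extraction 2, each from 1 array. The others included Obp99b (3.53 against −0.21), the clotting protein gene fon (3.19 against −0.20) and regucalcin (3.55 against 0.36). All 5 were above 2 in extraction 1 and between −0.35 and 0.36 in extraction 2, and none of them passed the test. Among the 17 genes with such a gap only Nplp2, which encodes a secreted peptide, and CG32373 were called. Without the 17 the correlation was 0.833, but they were chosen by that gap, so a higher value follows from the choice. Of the 15 fat body markers chosen, 5 were tested, with a median of 1.96 in extraction 1 and −0.08 in extraction 2. Counts are therefore given with and without extraction 1, where the lone remaining extraction is assumed to vary like the ash2 extractions.

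**Figure D1:**
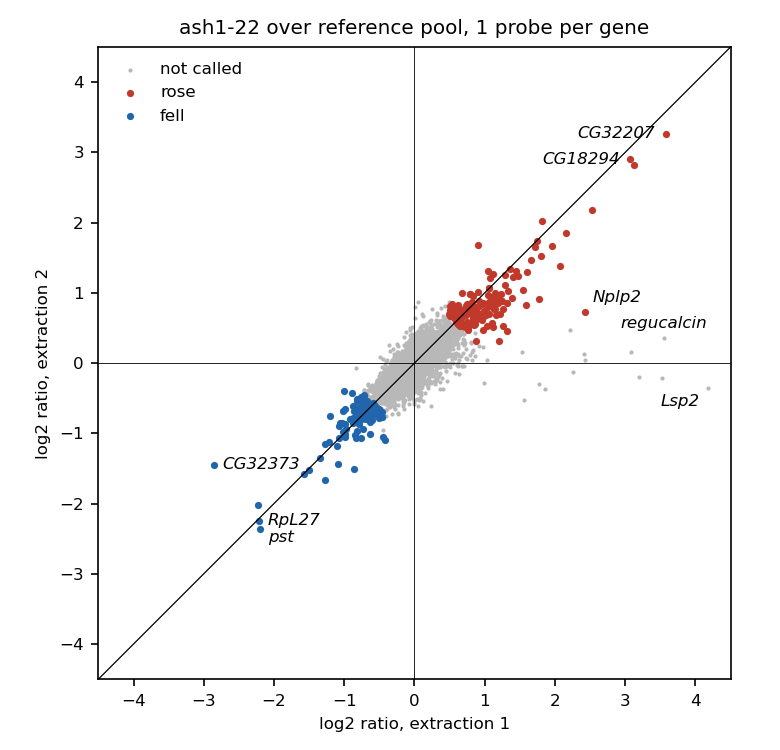
Mean log2 ratio of ash1-22 over the pool for each gene in extraction 1 (horizontal) and extraction 2 (vertical), with 1 point per gene, red for genes that rose and blue for genes that fell. Most called genes lie near the diagonal, as the test favours genes whose extractions are close. Lsp2 and regucalcin lie far to the right at 4.18 and 3.55 in extraction 1 and at −0.35 and 0.36 in extraction 2.

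In ash1-22, 154 of 8148 genes rose (1.89% of the genes tested) and 105 fell (1.29%), 259 in all (3.18%). Without extraction 1 the counts were 20 and 21, and without extraction 2 they were 95 and 38. Of the called genes, 188 had a value on all 4 arrays, 57 on 3 and 14 on 2, and 183 of the 188 had the same sign on all 4. With all arrays of the 3 alleles brought to a common spread, 332 genes rose and 355 fell, so no excess of rises over falls was seen there. By adjusted p alone on the deposited scale, 399 genes were higher and 531 lower, with 1 probe per gene. The excess of rises is therefore tied to the 1.5-fold threshold as well. The ash1-22 arrays had the smallest spreads, 0.197 to 0.252 against 0.277 to 0.464 in the ash2 alleles. A common scale therefore enlarges ash1-22 ratios while the 1.5-fold threshold stays, which loosens the threshold for every common-scale count given below. On the deposited scale 44 genes rose and 16 fell past 2-fold. When either extraction was left out, 34 genes kept their call both times, 19 that rose and 15 that fell. The 25 called genes with more than 1 probe tested were each called through 1 probe and not through the others, and in 18 of them all probes had the same sign. For these genes the value given is that of the called probe.

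The largest rises were in genes of little known function. CG32207 had log2 ratios of 3.58 in extraction 1 and 3.34 and 3.19 in extraction 2, all high, with 1 array missing, for a mean of 3.42 ± 0.11 (SE, adjusted p = 2.14e-05), which is 10.7-fold. CG18294 was at 3.12, 3.02, 2.87 and 2.93, in the order extraction 1 Cy3, extraction 1 Cy5, extraction 2 Cy3 and extraction 2 Cy5, which is kept below. Its mean was 2.99 ± 0.14 (7.92-fold, adjusted p = 7.8e-05), and the 4 arrays differed from each other by far less than their distance from 0. The gene flip was as high, at 3.13 and 2.83 (mean 2.98 ± 0.09, adjusted p = 4.92e-05), but both values have the mutant in Cy3, so a dye effect is not averaged out. CG5174 was at 2.64, 2.41, 2.35 and 2.01 (mean 2.35 ± 0.12, adjusted p = 0.000121). CG17681 was at 1.84, 2.48, 1.99 and 1.71 (mean 2.00 ± 0.17, adjusted p = 0.00147). CG15012 was at 1.87, 1.62, 1.76 and 1.72 (mean 1.74 ± 0.08, adjusted p = 7.8e-05). The other probe of CG5174 was at −0.09 (adjusted p = 0.449) and that of CG17681 at 0.24 (adjusted p = 0.151), so for these genes the rise rests on 1 probe. Against the same pool, the called probe of CG5174 was at 1.19 in ash2-I1 and 2.14 in ash2-112411, and that of CG17681 at 1.85 and 1.11. Flip was at 0.81 in ash2-112411 and was not tested in ash2-I1. CG18294, CG32207 and CG15012 are set beside the ash2 alleles below.

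Several large rises were in genes of known function. Syp, which encodes an RNA-binding protein of the hnRNP family, was at 1.72, 1.99 and 1.31 on 3 arrays (mean 1.68 ± 0.07, adjusted p = 4.16e-05) through 1 of its 2 probes. The other Syp probe was lower than the pool, at −0.35 (adjusted p = 0.048), so the probes disagree. The linker histone H1 copy His1:CG31617 was at 2.08, 1.56 and 2.03 (mean 1.92 ± 0.24, adjusted p = 0.0057), a value that cannot be assigned to 1 copy because histone H1 genes are near-identical repeats. Both were above 1.3 on every array that measured them, but the histone copy lost its call when either extraction was left out, and Syp kept it. The iron-binding transferrin Tsf1 was at 2.32, 1.59, 1.82 and 1.51 (mean 1.81 ± 0.15, adjusted p = 0.00152), so that, unlike Lsp2 and Fbp1, it was high in both extractions. Nplp2 was at 2.72, 2.14, 1.16 and 0.30 (mean 1.58 ± 0.34, adjusted p = 0.0384), higher in extraction 1 on both dyes, and it was not called without extraction 1. The glutathione S-transferase GstD9, of the family that conjugates glutathione to toxic compounds, was at 1.67, 1.63, 1.67 and 1.28 (mean 1.56 ± 0.12, adjusted p = 0.0014). Gs2, a glutamine synthetase, was at 1.43, 0.81, 1.62 and 0.93 (mean 1.20 ± 0.12, adjusted p = 0.0028), with the mutant-in-Cy3 array the higher of each pair. Corto, a chromodomain protein that takes part in both trithorax and Polycomb regulation, was at 1.07, 1.03, 1.52 and 1.10 (mean 1.18 ± 0.10, adjusted p = 0.00147). Tsf1, GstD9, Gs2 and corto kept their calls when either extraction was left out. Gr64a, a taste receptor for sugars, was at 1.29, 1.67 and 0.84 on 3 arrays (mean 1.27 ± 0.07, adjusted p = 0.000841), and Tbh, the enzyme that makes octopamine, was at 1.48, 0.73, 0.84 and 0.80 (mean 0.97 ± 0.09, adjusted p = 0.00407). Against the same pool, Tsf1 was at 4.01 in ash2-I1 and 3.51 in ash2-112411. In the same order of alleles, GstD9 was at 2.57 and 2.42 and Gs2 at 0.69 and 1.46. In ash2-112411 Nplp2 was at 0.83 (adjusted p = 0.0882), Gr64a at 0.17 (adjusted p = 0.0977) and Tbh at 1.39. These genes had no value in ash2-I1. Syp, the histone copy and corto are set beside the ash2 alleles below.

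The largest falls were mostly in genes of known function. Pst, the antiviral factor pastrel, was at −2.59, −1.82, −2.93 and −1.78, with a mean of −2.28 ± 0.07 (adjusted p = 2.14e-05), and RpL27, a protein of the large ribosomal subunit, was at −2.36, −2.06, −2.47 and −2.01, with a mean of −2.23 ± 0.08 (adjusted p = 3.33e-05). Both were low on all 4 arrays, more so with the mutant in Cy3. The ecdysone-inducible gene ImpE2 was at −2.76, −1.71, −2.40 and −1.64 (mean −2.13 ± 0.50, adjusted p = 0.0386). Its extraction means were close, at −2.23 and −2.02, and its SE also holds the spread of the ash2 extractions, which the fit shares. Toy, 1 of the Pax6 genes of the fly, was at −1.35, −1.80, −1.44 and −1.71 (mean −1.58 ± 0.29, adjusted p = 0.0178), also even across arrays. Scyl, an inhibitor of TOR signalling, was at −1.96, −1.05, −2.08 and −0.97 (mean −1.52 ± 0.08, adjusted p = 0.000121), lower with the mutant in Cy3 in both extractions. Ctr9, a subunit of the Paf1 complex of RNA polymerase II elongation, was at −1.50, −1.03, −1.40 and −0.91 (mean −1.21 ± 0.10, adjusted p = 0.00147). Idh3g, a subunit of mitochondrial isocitrate dehydrogenase, was at −1.33, −1.10, −1.24 and −1.0 (mean −1.17 ± 0.10, adjusted p = 0.00147). All 7 of these genes, chosen among those of 1 sign on all 4 arrays, were below −0.9 on every array. Pst, RpL27, scyl, Ctr9 and Idh3g kept their calls without either extraction, while ImpE2 and toy lost theirs without either. CG32373 fell by 2.15 on the log2 scale (adjusted p = 0.00572), from −3.17 and −2.53 in extraction 1 to −1.45 on 1 array of extraction 2, and it was called without either.

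**Figure D2:**
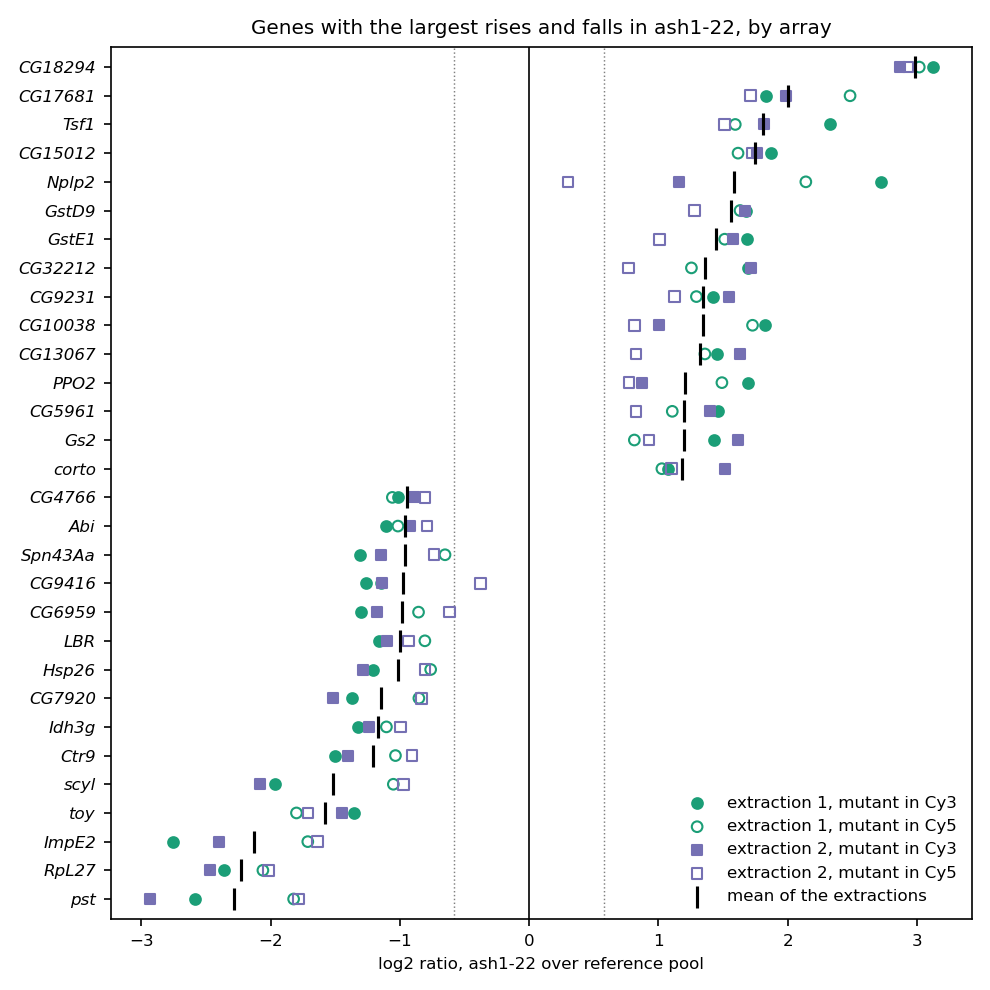
Log2 ratio over the pool on each of the 4 arrays for the 15 genes with the largest rise and the 15 with the largest fall among genes called through their most often measured probe with the same sign on all 4, with extraction and dye by symbol and black bars for the mean. CG18294 sits near 3 on every array, whereas Nplp2 runs from 0.30 to 2.72, and pst, RpL27 and ImpE2 all lie below −1.6.

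The array carries no probe for ash1 in the annotation used, so the loss of ash1 RNA was not analysed here. Ash2, the other gene of the series, had log2 ratios of 0.19 and 0.34 on the 2 arrays with the mutant in Cy3, a mean of 0.26 ± 0.16 that did not pass the test (adjusted p = 0.297). Of 21 ASH1 partners, histone lysine methyltransferases and demethylases chosen, 11 were tested and 0 were called, although the list had a median of −0.23 and 2 members had an adjusted p under 0.05 without reaching 1.5-fold. Across all genes 399 were higher (4.9%) and 531 lower (6.52%) by adjusted p alone, with 1 probe per gene. Trx, the trithorax methyltransferase, was at −0.80, −0.42, −0.57 and −0.43 (mean −0.55 ± 0.09, adjusted p = 0.0118). The histone demethylase Kdm4A was at −0.75, −0.57, −0.25 and −0.53 (mean −0.53 ± 0.10, adjusted p = 0.0212). MRG15 and Caf1-55, the partners of ASH1 in its complex, had log2 ratios of −0.20 and −0.22 that did not pass the test (adjusted p = 0.135 and 0.118). Of 8 Hox genes, 2 were tested. Antp, the Hox gene of the thorax, was at −0.40, −0.07, −0.41 and 0.00 (mean −0.22 ± 0.12, adjusted p = 0.253), and Scr, which specifies head and anterior thorax, had a mean of 0.01 ± 0.08 (adjusted p = 0.928). For the remaining Hox genes no comparison was made, because they had no value in both extractions or no probe.

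Chromosomes were described apart because the mutants share chromosomes X, Y and 2 with the reference line but not chromosome 3. The share of tested genes that were called was 2.06% on X, 2.62% on 2L, 3.35% on 2R, 3.68% on 3L and 3.64% on 3R. Chromosome 3 as a whole had 3.66% of its genes called against 2.73% for X and 2. The arms differed more in genes that fell, at 1.79% on chromosome 3 and 0.856% on X and 2. On the small chromosome 4, 5 of 49 genes were called (10.2%), of which 4 fell. They were toy, CG31999, yellow-h and Sox102F, a transcription factor of the Sox family, and the gene that rose was Rnf11, which encodes a RING finger protein. CG31999 was at −1.15, −1.40 and −1.67 on 3 arrays (mean −1.47 ± 0.11, adjusted p = 0.00386). Yellow-h, of the yellow family, was at −0.82, −0.63 and −0.94 on 3 arrays (mean −0.83 ± 0.08, adjusted p = 0.0028), and kept its call without either extraction. Sox102F was at −0.45, −1.01, −0.25 and −0.88 (mean −0.65 ± 0.08, adjusted p = 0.013), lower with the mutant in Cy5 in both extractions. The median of the 49 genes was −0.12, and 35 of them were below 0. In the ash2 alleles, measured against the same pool, chromosome 4 had 7 of 30 genes called (23.3%) in ash2-I1 and 13 of 40 (32.5%) in ash2-112411, where 12.8% and 18% of all genes tested were called. The origin of chromosome 4 in the mutants is not given in the sources used here, and its part in these values was not tested.

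Genes close to ash1 on 3L, ranked by their order among protein-coding genes in the RefSeq annotation of Release 6 plus ISO1 MT, were described beside the arm as a whole. Among the 50 nearest genes on each side of ash1, 68 were tested, of which 6 rose and 0 fell, 8.82% against 3.68% of 3L. Among the 100 nearest on each side it was 7 of 126, and among the 200 nearest 8 of 239 (3.35%). Windows of 50, 100 and 200 genes were counted, and without extraction 1 the count in it was 3. CG9231, 3 genes from ash1, was at 1.42, 1.29, 1.55 and 1.12 (mean 1.35 ± 0.11, adjusted p = 0.00147). CG32212, 18 genes away, was at 1.70, 1.26, 1.72 and 0.77 (mean 1.36 ± 0.09, adjusted p = 0.00147). CG18294, the largest rise among genes measured with 1 sign on all 4 arrays, lies 21 genes away. These 3 genes were high on all 4 arrays and were called without either extraction. The chitin deacetylase gene verm, 16 genes away, was at 1.06 and 0.70 on the 2 Cy3 arrays through 1 of its 3 probes (mean 0.88 ± 0.18, adjusted p = 0.0268), the others being at 0.53 and 0.54. CG14104, 30 genes away, was at 1.11, 0.68, 0.83 and 0.59 (mean 0.80 ± 0.11, adjusted p = 0.00788), and mRpL21, of the mitochondrial ribosome, 46 genes away, was at 0.70, 0.68 and 0.75 (mean 0.72 ± 0.12, adjusted p = 0.0122). The nearest genes that fell were MESR6, 55 genes away (mean −0.74 ± 0.08, adjusted p = 0.00386), and not, a subunit of the SAGA deubiquitinase module, 113 genes away (mean −0.61 ± 0.10, adjusted p = 0.0144). In the ash2 alleles, which share the pool with ash1-22, 7 of 53 genes among the 50 nearest on each side were called in ash2-I1. In ash2-112411 it was 18 of 76. Over all of 3L, 14.3% of the genes tested were called in ash2-I1 and 20.6% in ash2-112411. The log2 ratio of CG9231 was 0.79 in ash2-I1 and 1.99 in ash2-112411, and that of CG18294 was 1.92 and 2.49. CG32212 was 0.32 in ash2-112411, with no value in ash2-I1. The ash2 alleles also carry a chromosome 3 of their own, and sequence differences between chromosomes 3 and the reference line were not tested as a part of these values.

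**Figure D3:**
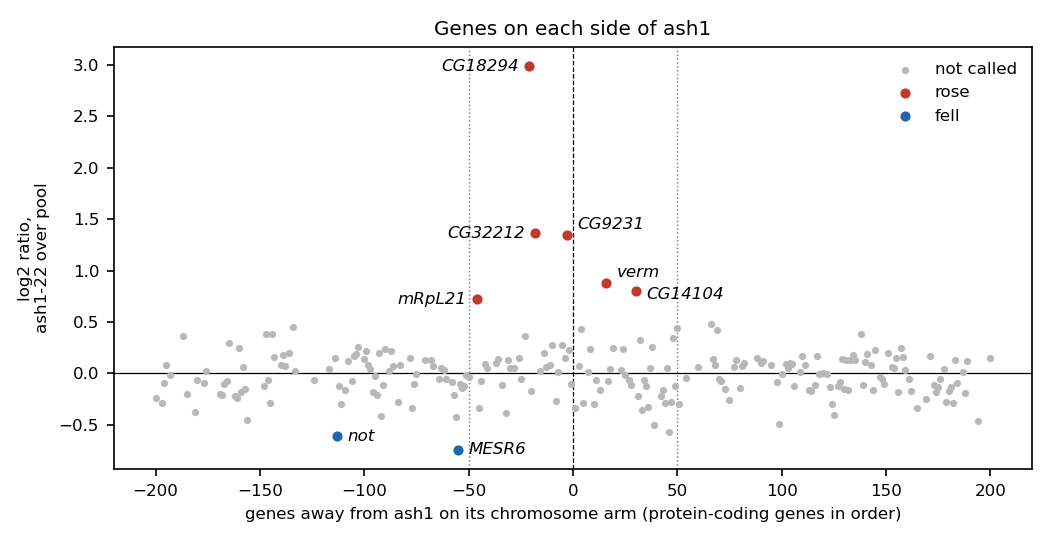
Log2 ratio of ash1-22 over the pool for genes by their place in gene order on each side of ash1 (genes away, with negative numbers on one side), with called genes in colour and dotted lines at 50 genes. The 6 called genes inside the dotted lines all rose, by 0.72 to 2.99.

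Gene lists were described by how many members were tested and called, beside the shares of all genes given above (1.89% rose, 1.29% fell). Disc patterning transcription factors had the most falls of any list. Of 46 tested, 0 rose and 9 fell, with a median of −0.23 against 0.009 for all genes, and 16 were lower and 0 higher by adjusted p alone. No member was called without extraction 1, and 1 was called without extraction 2. With the alleles on a common scale 14 fell and 1 rose. Eyg, a Pax gene of the thorax and eye, was at −0.95, −0.79 and −0.85 (mean −0.86 ± 0.08, adjusted p = 0.00407). The POU gene pdm2 was at −0.75, −1.01, −0.96 and −0.60 (mean −0.83 ± 0.09, adjusted p = 0.00321). Klu, a zinc finger gene of bristle formation, was at −0.85, −0.89, −0.59 and −0.64 (mean −0.74 ± 0.16, adjusted p = 0.0307). These genes were low on every array that measured them. Dll, of the distal appendage, was at −0.59, −0.82, −0.60 and −0.66 (mean −0.67 ± 0.08, adjusted p = 0.00641), and its other probe at −0.18. The dorsal selector ap was at −0.86, −0.63, −0.66 and −0.54 (mean −0.67 ± 0.10, adjusted p = 0.0101), and kn, of the central wing, was at −0.46, −0.82, −0.61 and −0.83 (mean −0.68 ± 0.07, adjusted p = 0.00549). Dr, a homeobox gene of the dorsal disc, was lower by the smallest margin of the 9, with a mean of −0.60 ± 0.10 (adjusted p = 0.0124). The wing selector vg had a log2 ratio of −0.25 (adjusted p = 0.051), and nub, the neighbour and paralog of pdm2, was at −0.13 (adjusted p = 0.428), neither of which passed the test. Of 18 wing disc markers tested, 0 rose and 3 fell (ap, pdm2 and Dll). In a ratio of whole discs, fewer cells of a type and less RNA per cell cannot be told apart.

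The list of Hsp70, Hsp90 and co-chaperones also holds Hsp60A, the Hsp10 gene CG11267 and the prolyl isomerase Fkbp14. It had the lowest median of the lists, −0.30. Of 23 tested, 0 rose and 5 fell, and 9 were lower and 0 higher by adjusted p alone. Without extraction 1 no member was called, and without extraction 2 there were 3, while 9 fell on the common scale. Stip1, which links Hsp70 to Hsp90, was at −0.60, −0.63, −0.85 and −0.66 (mean −0.69 ± 0.07, adjusted p = 0.00302). Fkbp14, a prolyl isomerase of the endoplasmic reticulum, was at −0.91, −0.69, −0.72 and −0.64 (mean −0.74 ± 0.08, adjusted p = 0.00318). CG7182, a member of the Hsp70 family, was at −1.04, −0.69, −0.85 and −0.52 (mean −0.78 ± 0.07, adjusted p = 0.00249). These 3 were low on all arrays, while CG11267, an Hsp10 co-chaperonin, was at −0.25, −1.27, −0.49 and −1.03 (mean −0.76 ± 0.13, adjusted p = 0.0166), lower with the mutant in Cy5 in both extractions. Hsp70Bc was called through 1 of 4 probes on 2 arrays (mean −0.70 ± 0.14, adjusted p = 0.0225), and its near-identical copies cannot be told apart. Hsp60A, the mitochondrial chaperonin, was at 0.33 (adjusted p = 0.185). The TRiC chaperonin, which folds actin and tubulin, had 0 of 8 subunits called, though CCT5 was at 0.13, −0.91, −0.28 and −0.91 (mean −0.49 ± 0.08, adjusted p = 0.0118), lower with the mutant in Cy5. Of 30 proteasome genes 1 fell, the base ATPase Rpt5, at −0.60, −0.60, −0.91 and −0.71 (mean −0.71 ± 0.08, adjusted p = 0.00381), and 7 were lower and 1 higher by adjusted p alone, with a median of −0.17. On the common scale 7 proteasome genes fell.

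Of 19 ecdysone response genes, 0 rose and 3 fell, all from the set first found as ecdysone-inducible in discs. Beside ImpE2, ImpE3 was at −0.83, −0.69 and −1.07 (mean −0.91 ± 0.11, adjusted p = 0.00775), and ImpL2, whose product binds insulin-like peptides, was at −0.92, −0.72, −1.17 and −0.75 (mean −0.89 ± 0.11, adjusted p = 0.00536). None of the 3 was called without either extraction. Of 11 insulin and TOR genes, 0 rose and 3 fell, which were scyl, ImpL2 and Pdk1, the kinase that activates Akt, at −0.63, −0.76, −0.71 and −0.42 (mean −0.63 ± 0.07, adjusted p = 0.00386). Of these genes scyl and ImpL2 act against growth and Pdk1 acts for it. The receptor InR (0.12, adjusted p = 0.367) and the transcription factor foxo (0.19, adjusted p = 0.292) did not pass the test. Without extraction 1 the insulin and TOR list held 1 fall and without extraction 2 it held 2. In the Notch list 1 of 14 fell, spdo, which acts in Notch trafficking in sensory organ cells (mean −0.83 ± 0.16, adjusted p = 0.0201, 2 arrays), though its other probe was at 0.10.

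Lists of nuclear proteins had between 0 and 2 rises and between 0 and 3 falls each. Of 33 SR and hnRNP genes of RNA splicing, 0 rose and 3 fell. The SR protein gene B52 was at −1.39, −1.31, −1.27 and −1.43 through 1 of its 3 probes (mean −1.35 ± 0.07, adjusted p = 0.000685), the others being at −0.12 and −0.32 and not called. Hrb27C, an hnRNP gene, was at −0.64, −0.67, −0.77 and −0.70 (mean −0.70 ± 0.07, adjusted p = 0.00543), with its other probe at −0.10, and Dyrk2, a protein kinase counted with this list, was at −1.07, −1.16 and −0.97 (mean −1.07 ± 0.09, adjusted p = 0.00147). All 3 called probes were even across arrays and dyes. Of 31 nuclear transport genes 1 fell, Fs(2)Ket, the importin beta gene, at −0.68, −0.58, −1.16 and −0.85 (mean −0.82 ± 0.11, adjusted p = 0.00677), and it was not called without extraction 2. A further 5 were lower by adjusted p alone, among them Ran (−0.45, adjusted p = 0.0244), the GTPase that drives transport, and Pen (−0.44, adjusted p = 0.0179), an importin alpha, and the list had a median of −0.22, with 5 falls on the common scale. Of 10 genes of the nuclear lamina and envelope, LBR, the lamin B receptor, fell, at −1.16, −0.81, −1.10 and −0.93 (mean −1.0 ± 0.09, adjusted p = 0.00177), and Msp300, a nesprin that ties nuclei to actin and is abundant in muscle, rose, at 0.65, 0.70, 0.92 and 1.08 (mean 0.84 ± 0.19, adjusted p = 0.0373) through 1 of 2 probes, the other being at 0.15. In the chromatin remodelling list, corto rose and is itself not a remodelling ATPase, while Iswi, the ATPase of several remodelling complexes, was at −0.57 (adjusted p = 0.0119), short of 1.5-fold. Of 27 genes of RNA polymerase II and its general factors, Ssb-c31a, the fly ortholog of the coactivator PC4, rose, at 1.18, 0.90, 0.90 and 0.81 (mean 0.95 ± 0.12, adjusted p = 0.00603), as did mrn, a TFIIH subunit (mean 0.64 ± 0.10, adjusted p = 0.0119).

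In the cytoskeleton and at the membrane, single genes moved both ways. Of 23 actin regulators, Abi fell, at −1.10, −1.01, −0.92 and −0.79 (mean −0.96 ± 0.08, adjusted p = 0.00147), and HSPC300 rose, at 0.83, 1.12, 0.54 and 0.78 (mean 0.82 ± 0.14, adjusted p = 0.0143). Both encode subunits of the WAVE complex, which starts actin branching. Of 23 septate junction and Ly6 genes 2 rose, both of the Ly6 family. Bero was at 1.08, 1.05, 1.23 and 0.91 (mean 1.07 ± 0.08, adjusted p = 0.00229) and CG9338 at 0.87, 0.78, 1.04 and 0.70 (mean 0.85 ± 0.09, adjusted p = 0.00302). Neither was called without extraction 1. Of 6 innexins, which form gap junctions, ogre fell (mean −0.65 ± 0.10, adjusted p = 0.0107). Axon guidance receptors and ligands (15 tested) and the Arf, COPI and COPII transport genes (16 tested) had 0 called, with medians of −0.11 and −0.17 and 3 genes each lower by adjusted p alone. Fra, the netrin receptor, was lowest of the former, at −0.44 ± 0.09 (adjusted p = 0.022).

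**Figure D4:**
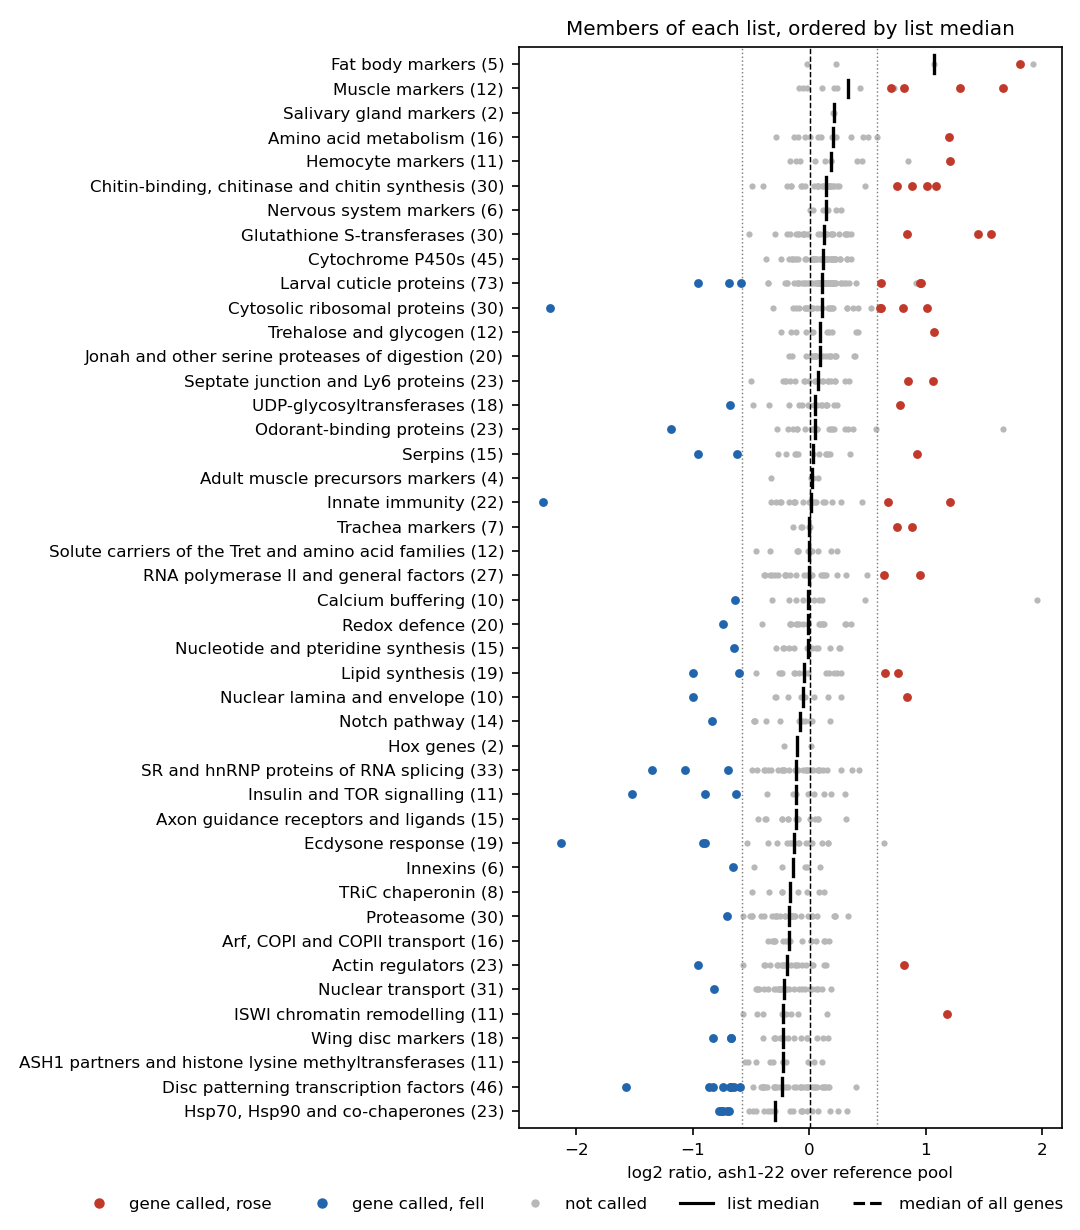
Log2 ratio of ash1-22 over the pool for each tested member of the gene lists and marker lists (number tested in parentheses), ordered by list median (black bar), with red and blue for genes that rose and fell and dotted lines at 1.5-fold. Disc patterning transcription factors and the list of Hsp70, Hsp90 and co-chaperones have called genes only on the lower side, with medians of −0.23 and −0.30. On a common scale, however, 1 patterning gene rose.

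Lists of detoxification and metabolism had between 0 and 3 rises and between 0 and 2 falls each. Of 30 glutathione S-transferases 3 rose and 0 fell. Besides GstD9, GstE1 was at 1.69, 1.51, 1.58 and 1.01 (mean 1.45 ± 0.23, adjusted p = 0.0119) and GstE11 at 0.95, 0.81, 0.90 and 0.70 (mean 0.84 ± 0.14, adjusted p = 0.0125). GstD9 alone of the 3 kept its call when either extraction was left out, 1 rise each time. Of 45 cytochrome P450 genes 0 were called, and the list had a median of 0.12. UDP-glycosyltransferases had 1 rise, Ugt50B3 (mean 0.78 ± 0.11, adjusted p = 0.0121), and 1 fall, Ugt302K1 (mean −0.68 ± 0.16, adjusted p = 0.0378), of 18. In the redox list Prx3, a mitochondrial peroxiredoxin, fell, at −0.80, −0.74, −0.73 and −0.68 (mean −0.74 ± 0.07, adjusted p = 0.00277), the 1 call of 20. Of 16 genes of amino acid metabolism Gs2 rose, and the list median was 0.20. Of 12 trehalose and glycogen genes CG5177 rose, at 1.19 and 0.95 on the 2 Cy3 arrays (mean 1.07 ± 0.10, adjusted p = 0.00321). Of 19 lipid synthesis and storage genes 2 rose and 2 fell. FASN3, a fatty acid synthase, was at 0.81, 0.97, 0.42 and 0.84 (mean 0.76 ± 0.14, adjusted p = 0.0233), and Desat1, a desaturase, had a mean of 0.65 ± 0.15 (adjusted p = 0.0363) through 1 of 2 probes, the other being at 0.49. The falls were in genes of lipid droplets, sturkopf, at −1.22, −0.83 and −0.98 (mean −1.0 ± 0.11, adjusted p = 0.00381), and the perilipin Lsd-2 (mean −0.60 ± 0.09, adjusted p = 0.0118). Of 15 nucleotide and pteridine genes Ctps, CTP synthase, fell (mean −0.65 ± 0.14, adjusted p = 0.0307) through 1 of 3 probes, the others being at −0.04 and −0.03. Of 10 calcium buffering genes CBP, a calcium-binding protein, fell (mean −0.63 ± 0.09, adjusted p = 0.00709).

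Cuticle, chitin and ribosomal genes were called in small numbers. Of 30 chitin genes 4 rose and 0 fell, with a median of 0.15. Idgf6, a chitinase-like growth factor, was at 1.49, 1.14, 0.98 and 0.72 (mean 1.08 ± 0.13, adjusted p = 0.00466). Gnpnat, which makes a precursor of chitin, was at 1.14, 0.96, 1.14 and 0.80 (mean 1.01 ± 0.09, adjusted p = 0.00202). Gasp, a chitin-binding protein of tracheal and other cuticle, was at 0.75, 0.89 and 0.61 (mean 0.75 ± 0.07, adjusted p = 0.0025), and verm, given above, was the fourth. All 4 were higher than the pool on every array that measured the called probe, 0 members were called without extraction 1 and 3 were called without extraction 2. Of 73 larval cuticle genes 3 rose and 3 fell. The neighbours Cpr67Fa1 and Cpr67Fa2 went opposite ways, at 1.15, 1.13, 0.55 and 0.98 (mean 0.95 ± 0.12, adjusted p = 0.0057) and at −0.83 and −1.07 on the 2 Cy3 arrays (mean −0.95 ± 0.16, adjusted p = 0.0153). Of 30 cytosolic ribosomal protein genes 4 rose and RpL27 alone fell. RpLP2, of the ribosomal stalk, was at 0.57, 1.96, 0.30 and 1.24 (mean 1.01 ± 0.15, adjusted p = 0.0123), with the Cy5 array the higher of each pair. RpS18 was at 0.59, 0.68, 0.49 and 0.69 (mean 0.61 ± 0.08, adjusted p = 0.0061), RpL10Ab had a mean of 0.60 ± 0.10 (adjusted p = 0.0155), and RpL23 was at 0.81 and 0.79 on the 2 Cy5 arrays (mean 0.80 ± 0.08, adjusted p = 0.00318). The list had a median of 0.11. Without extraction 1, 0 of these genes rose and 1 fell, and without extraction 2 the counts were 2 and 1.

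Immune genes, serpins and odorant-binding proteins had few calls. Of 22 innate immunity genes 2 rose and pst fell. PPO2, the prophenoloxidase of crystal cells, was at 1.69, 1.49, 0.87 and 0.77 (mean 1.21 ± 0.26, adjusted p = 0.032), higher in extraction 1. Diap2, an inhibitor of apoptosis needed for Imd signalling, was at 0.71, 0.59, 0.84 and 0.56 (mean 0.68 ± 0.07, adjusted p = 0.00386). Of 15 serpins, which inhibit proteases, Spn100A rose, at 1.26, 0.84, 0.64 and 0.95 (mean 0.92 ± 0.09, adjusted p = 0.00407), and Spn43Aa fell, at −1.31, −0.65, −1.15 and −0.73 (mean −0.96 ± 0.21, adjusted p = 0.0343), as did Spn47C (mean −0.62 ± 0.09, adjusted p = 0.00759). Of 23 odorant-binding proteins Obp99a fell, at −0.96, −0.77 and −1.51 (mean −1.19 ± 0.23, adjusted p = 0.0214), while Obp99b was high in extraction 1 alone. Digestive serine proteases (20 tested) and sugar and amino acid carriers (12 tested) had 0 called.

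Markers of some other tissues were called and those of others were not. Of 12 muscle markers tested 4 rose and 0 fell (8 rose with the alleles on a common scale), with a median of 0.33, 0.42 in extraction 1 and 0.29 in extraction 2. Mp20 was at 1.98, 1.63 and 1.52 (mean 1.67 ± 0.26, adjusted p = 0.0117), Mlc1 at 1.54 and 1.04 on the 2 Cy3 arrays (mean 1.29 ± 0.16, adjusted p = 0.00613) and Mlc2 at 1.23, 1.02, 0.67 and 0.34 (mean 0.82 ± 0.20, adjusted p = 0.0449). The muscle structural markers Tm2 (−0.02), Prm (−0.09) and sls (−0.06) did not pass the test (adjusted p = 0.886, 0.426 and 0.844). Without extraction 1 no muscle marker was called, and without extraction 2 there was 1. Of 5 fat body markers 1 rose (Tsf1), of 11 hemocyte markers 1 (PPO2), and of 7 tracheal markers 2 (Gasp and verm), and nervous system (6 tested), salivary gland (2) and adult muscle precursor (4) markers had 0 called. The part of these tissues in the rises of Msp300, PPO2, Tsf1, Nplp2 and the chitin genes was not tested.

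The differences between ash1-22 and the ash2 alleles were tested as contrasts of the same fit, in which the pool cancels. Of 5430 genes tested against both ash2 alleles, 14 rose in ash1-22 and were higher there than in both (0.258%), and 19 fell and were lower there than in both (0.35%). Without extraction 1 of ash1-22 the counts were 4 and 4, without extraction 2 they were 12 and 5, and without extraction 2 of ash2-112411 the genes higher than both were 8. Of the 19 genes lower than in both, 15 lie on chromosome 3 and 2 on chromosome 4, and of the 14 higher, 4 lie on chromosome 3, where 43.9% of the genes tested lie. Chromosome 4 held 49 of the 8148 genes tested in ash1-22. Each mutant carries its own chromosome 3, so the allele and the rest of that chromosome cannot be told apart in these contrasts. The log2 scale of each allele was set apart by the authors, so differences between alleles rest on that scale.

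Several of these genes were on the other side of 0 in the ash2 alleles. The Pax6 gene toy was −1.58 in ash1-22 and 1.31 in ash2-I1 and 1.26 in ash2-112411, and it differed from the nearer by −2.83 (adjusted p = 0.00578). Ugt302K1 was −0.68 against 2.64 and 1.34, in the same order of alleles, and glob1, a globin gene, was −0.58 ± 0.09 against 1.33 and 0.90. Toy, Ugt302K1 and glob1 had an adjusted p under 0.05 in both ash2 alleles as well. The chromosome 4 gene yellow-h was −0.83 against 0.28 (adjusted p = 0.0309) and 0.07 (adjusted p = 0.524), of which the second did not pass the test. In the other direction, His1:CG31617 was 1.92 against −0.14 (adjusted p = 0.673) and −1.16, corto was 1.18 against −0.22 (adjusted p = 0.122) and −0.55, and CG30423 was 0.80 ± 0.09 against −1.03 and −0.47. Corto differed from ash2-I1 by 1.40 (adjusted p = 0.00119) and from ash2-112411 by 1.73 (adjusted p = 0.00204). Gnpnat was 1.01 against −0.83 and −0.03 (adjusted p = 0.788). The ash2 values given with a p over 0.05 here did not pass the test in that allele.

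Other genes moved in ash1-22 with little change or a smaller change in ash2, in some of them the opposite way in ash2-I1. RpL27 was −2.23 in ash1-22 and 0.02 in ash2-I1 and −0.55 in ash2-112411, a difference of −1.68 from the nearer (adjusted p = 0.00198). Spase12, a signal peptidase subunit, was −0.83 against 0.41 (adjusted p = 0.00573) and 0.21 (adjusted p = 0.0608). UQCR-Q, a subunit of respiratory complex III, was −0.59 against 0.31 (adjusted p = 0.0115) and 0.11 (adjusted p = 0.235). The called Syp probe was 1.68 against 0.25 and 0.45, a difference of 1.24 from the nearer (adjusted p = 0.00198), and CG15012 was 1.74 against 0.16 and 0.68. Acat1, an acetyl-CoA acetyltransferase, was at 0.98, 0.96, 0.97 and 0.73 in ash1-22 (mean 0.91 ± 0.07, adjusted p = 0.00147) and at 0.21 and 0.18 in the ash2 alleles. Scyl and CG32207 moved the same way in all mutants and further in ash1-22, with scyl at −1.52 against −0.83 and −0.85 and CG32207 at 3.42 against 2.42 and 2.64. Idh3g and the peroxiredoxin gene Prx3 were also lower in ash1-22 than in both. Idh3g was −1.17 against 0.28 (adjusted p = 0.0583) and −0.62 (adjusted p = 0.00181). Prx3 was −0.74 against 0.42 (adjusted p = 0.00372) and −0.16 (adjusted p = 0.107). Prx3 was called in ash1-22 without extraction 2 but not without extraction 1.

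**Figure D5:**
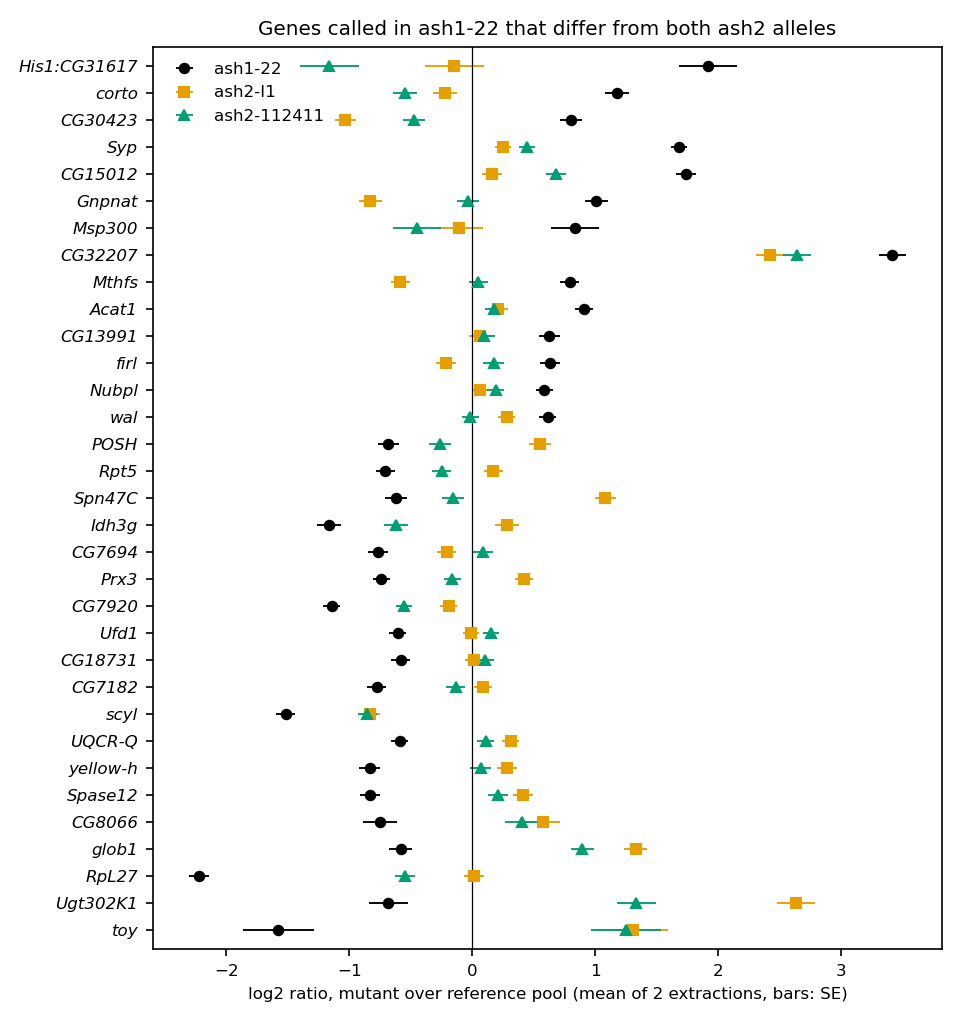
Mean log2 ratio over the pool with its SE in ash1-22, ash2-I1 and ash2-112411 for the 33 genes called in ash1-22 that differ in the same direction from both ash2 alleles. Toy and Ugt302K1 lie below 0 in ash1-22 and above 1 in both ash2 alleles, and His1:CG31617 is at 1.92 in ash1-22 and below 0 in both.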

How the data were processed

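By the methods, GenePix readings were filtered for spot quality, background was corrected by normexp and OLIN normalized each array. The methods then scaled the 4 arrays of an allele by median absolute deviation, apart from those of the others. In the deposited values this deviation, scaled to a standard deviation, still differed within an allele. It ran from 0.197 to 0.252 in ash1-22 and from 0.277 to 0.382 in ash2-I1. The submitters' processing notes name limma. The deposited log2 values are ratios of Cy5 over Cy3. Values were multiplied by −1 where the mutant was in Cy3, and the arrays of an extraction were averaged. A linear model over the 6 extractions of the 3 alleles, with each allele tested against 0, was run in limma 3.58.1 (R 4.3.3), with Python 3.11.15, pandas 2.3.3 and numpy 2.4.6 for the summaries. The pool is 1 control sample, so its error is in no SE. A probe measured on 1 array of an extraction keeps its dye effect, and 11 called genes had the mutant in 1 dye only. The number of arrays limits the precision. Of the probes, 13164 had 1 gene symbol and were used, 101 with several were left out, and ash1 had 0.

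Genes named are ash2, the 15 largest rises and 15 largest falls of 1 sign on all 4 arrays among genes called through the probe measured on the most arrays (which leaves out CG5174 and B52, called through another), up to 6 called members of each list (or up to 3 by unadjusted p), the 10 largest differences from both ash2 alleles in each direction and the 5 called genes nearest ash1. The rule takes the probe on the most arrays, and for 10 genes called through another probe the called probe is given instead. CG5174, flip, CG32373, CG31999, Sox102F, Rnf11, Gr64a, Tbh, Dr, mRpL21, MESR6, not, the genes with a gap between extractions and list members below threshold were added after their values were seen. Members, lists (36, and 8 of markers) and tests were chosen with earlier results of these data known. Alternatives left out each extraction, put the alleles on a common scale, centred arrays, added a replicate block, used a robust prior, averaged probes, kept fully measured probes, fitted ash1-22 alone, took arrays as replicates and changed the threshold. Counts near ash1 under these were added after seeing the data. The fit was tested on simulated data.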

Additional observations from a re-analysis of the deposited data

Results flagged for a closer look

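Among 74 named called genes with a value on all 4 ash1-22 arrays, 5 had 1 array apart from the other 3 by Dixon's criterion, which chance gives in about 1 in 20 groups. The array apart was at 1.28 for GstD9, 1.52 for corto, −0.37 for CG9416, 0.95 for Cpr11B and 0.73 for Acat1, all log2 ratios over the pool. In CG9416 the other arrays were at −1.26, −1.14 and −1.14, and in Cpr11B at 0.48, 0.55 and 0.49.

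The difference of ash1-22 from both ash2 alleles passed the limma contrast for 25 named genes, given here as the difference from the nearer ash2 allele on the log2 scale. It was positive for His1:CG31617 (2.07), corto (1.40), CG30423 (1.28), Syp (1.24), CG15012 (1.06), Gnpnat (1.04), Msp300 (0.94), CG32207 (0.78), the folate enzyme gene Mthfs (0.74) and Acat1 (0.69). It was negative for toy (−2.83), Ugt302K1 (−2.02), RpL27 (−1.68), glob1 (−1.48), CG8066 (−1.16), Spase12 (−1.04), yellow-h (−0.90), UQCR-Q (−0.70), scyl (−0.67), CG7182 (−0.64), CG7920 (−0.59), Prx3 (−0.58), Idh3g (−0.55), Spn47C (−0.46) and Rpt5 (−0.46). All 3 alleles share the pool, and their scales were set apart.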

How the results depend on the processing

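Leaving out 1 extraction of any allele in turn, genes that rose in ash1-22 numbered 20 to 157, genes that fell 21 to 110, genes higher than both ash2 alleles 4 to 18 and genes lower than both 4 to 21. The count of called genes among the 50 nearest on each side of ash1 ran from 3 to 6. The lowest counts came without extraction 1 of ash1-22, where 20 of 20 rises and 19 of 21 falls were among those reported. A common scale for all alleles enlarges ash1-22 ratios at an unchanged threshold. With it, 332 genes rose and 355 fell, 46 were higher and 65 lower than both ash2 alleles, and 10 were called near ash1. The share called was then 6.50% on X, 7.52% on 2L, 8.39% on 2R, 10.25% on 3L and 9.41% on 3R. With probes on all 4 ash1-22 arrays it was 3.50% on X, 4.51% on 2L, 4.72% on 2R, 5.26% on 3L, 4.86% on 3R and 10.71% on chromosome 4, and with probes on all 12 arrays 8 genes were higher and 10 lower than both. By adjusted p alone 405 rose and 549 fell in counts over all probes of a gene, and past 2-fold 44 and 16. With the replicate block, 155 rose, 101 fell, 13 were higher and 18 lower than both, and it changed no call of the 130 named genes it could be computed for. Deviations of extractions with the same number correlated across probes at −0.046, −0.134 and 0.091 between alleles. Whether extractions with the same number were handled together was not tested. Of 102 named genes that were called, 74 lost the call without extraction 1 of ash1-22 and 51 without extraction 2, and among all named genes no direction reversed under any alternative run. The cause of these shifts was not tested, apart from the fewer samples when an extraction is left out. The pool's own spread, signal over background and the scale of each allele limit all values.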
